A study of Mus musculus and Mus musculus x Mus spretus with 14 samples.

Results

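The miR-29 family was read from 3 probes of a microRNA array, those for mmu-miR-29a, mmu-miR-29b and mmu-miR-29c, among 576 probes that name a mouse miRNA and 1271 probes in all. The probes were found by name, and were set beside the 2 probes for U6 small nuclear RNA, U6-snRNA-1 and U6-snRNA-2. Cy3-labelled total RNA of 13 mouse skin lines was hybridised, once per line except for A5, whose 2 arrays were averaged, so that n counts lines.

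The lines fall into 3 phenotypes. The 5 non-malignant squamous lines were the immortalized keratinocytes C5N (a single-cell clone of MCA3D, from a BALB/c mouse), C50 and NK (from a p53 null mouse), and the papilloma lines MSCP1 and P6, both from Mus spretus X CBA mice treated with DMBA and TPA, a carcinogen and a tumour promoter. The 3 malignant squamous lines were B9 (DMBA, M. spretus X CBA), E4 (cloned from SN161, a lymph node metastasis in an F1 hybrid of 129 and NIH mice) and PDVC57 (a tumour grown in C57 mice from keratinocytes transformed with DMBA in culture). The 5 malignant spindle lines were A5 and D3, from the same tumour as B9; H11, from the same metastasis as E4; and CARB and CARC, from NIH/Swiss mice given DMBA and TPA. All lines were grown alike in DMEM with serum. The main tests treat the lines as independent, which lines of 1 tumour are not, so their p-values are approximate. Each line but A5 was arrayed once, so the p-values set group differences against the spread between these lines. The labels disagree on whether NK and P6 carry Mus spretus ancestry.

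A microRNA binds messenger RNAs mainly through its seed, the bases next to its 5′ end, and lowers their translation and stability. The miR-29 family is known in mouse and human tissue for targeting collagens and other extracellular matrix genes, and in human cells for targeting DNA methyltransferases. It is made from a pair of loci, each of which encodes 2 hairpins. U6 RNA, part of the spliceosome, is a common reference for small RNA measurements.

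The mature sequences are shown because the members share a seed and differ in the bases that an array probe must tell apart. They are RefSeq's, on build GRCm38.p6, written 5′ to 3′ with the seed (bases 2 to 8) in capitals.
miR-29a: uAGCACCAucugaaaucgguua
miR-29b: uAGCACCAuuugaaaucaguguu
miR-29c: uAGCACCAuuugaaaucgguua
The mature miR-29a lies at chr6:31062673-31062694 on the minus strand, within Mir29a. The mature miR-29c lies at chr1:195037600-195037621 on the plus strand, within Mir29c. The mature miR-29b is encoded at both loci, at chr6:31063025-31063047 on the minus strand in Mir29b-1 and at chr1:195037091-195037113 on the plus strand in Mir29b-2. On chromosome 6 the hairpins of Mir29a and Mir29b-1 are 275 bases apart, and on chromosome 1 those of Mir29b-2 and Mir29c are 426 bases apart. Of 1738 mature mouse entries, the 4 with the seed AGCACCA carry 3 names, all of them miR-29. Counted from the 5′ end, miR-29a and miR-29c differ by C10U alone and are the same at 21 of 22 positions. miR-29c and miR-29b differ by G18A, U21G and A22U, and miR-29b has 1 further base at its 3′ end. How far each probe cross-hybridises with the other members was not tested.

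The 2 hairpins that give miR-29b are shown because their mature product, in capitals, is identical, so the miR-29b probe reads both loci together, 1 shared with miR-29a and 1 with miR-29c.
Mir29b-1: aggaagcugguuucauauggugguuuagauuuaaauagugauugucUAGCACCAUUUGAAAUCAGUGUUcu
Mir29b-2: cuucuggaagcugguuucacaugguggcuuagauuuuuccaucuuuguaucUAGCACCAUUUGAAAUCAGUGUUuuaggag

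Values are the deposited log2 signals, on which 1 unit is a 2-fold change, and the authors' scaling is not given in the sources used here. Background is taken as the median of 8 negative control probes, 6.50 to 6.67 by line. Before any comparison, 3 arrays stood apart. C5N had a median correlation of 0.332 with the other lines over the mouse probes, and A5 of 0.735, against 0.819 to 0.909 in the 10 lines other than C5N, MSCP1 and A5. MSCP1 had 37 mouse probes over 1 unit above background, against 119 to 185. On these 3 arrays let-7a, an abundant miRNA of most tissues, read 6.99, 7.34 and 7.56 (C5N, MSCP1 and A5), against 9.87 to 10.5 in the 10 others. The epithelial markers miR-141, miR-200c, miR-203 and miR-205 were over 1 unit above background in at least 1 line for 4 of 4 in the non-malignant squamous, 3 of 4 in the malignant squamous and 0 of 4 in the spindle lines. The mesenchymal markers miR-143, miR-145, miR-199a-5p and miR-214 were so for 4 of 4 in the spindle lines and 1 of 4 in each squamous group. Single lines differed within the groups. In the spindle lines A5 and H11 only miR-214 of the mesenchymal list was over 1 unit above background. miR-214 was farthest above background in the malignant squamous line E4, by 2.77. E4 had only miR-141 of the epithelial list over 1 unit above background.

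miR-29a and miR-29b were higher in all 8 malignant lines than in the immortalized keratinocytes and the papilloma line MSCP1, while the papilloma line P6 stood with the malignant lines. miR-29c followed less closely, and its 4 highest lines were spindle lines, while the spindle line A5 lay below P6. No difference between groups passed an adjusted p of 0.05 on the deposited values, and the members' differences from the non-malignant lines became smaller or turned after either U6 probe was subtracted, except that of miR-29c in malignant squamous lines, which turned to a larger size.

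For miR-29a, the non-malignant squamous lines read 8.34 in C5N, 9.52 in C50, 9.37 in NK, 8.45 in MSCP1 and 11.13 in P6. The malignant squamous lines read 11.74 in B9, 12.21 in E4 and 11.56 in PDVC57. The spindle lines read 12.34 in A5, 12.32 in D3, 10.97 in CARB, 10.42 in CARC and 11.22 in H11. All 3 malignant squamous lines lay above all 5 non-malignant lines, and the spindle lines overlapped the non-malignant lines only through P6. The group means were 9.36 ± 1.12 (SD, n = 5), 11.84 ± 0.34 (SD, n = 3) and 11.45 ± 0.85 (SD, n = 5). In the order of lines, A5, D3 and E4 were parted by steps of 0.02 and 0.10, less than the 0.57 between the 2 A5 arrays, the only repeat. A gap of 0.90 parted CARC, the lowest malignant line, from C50, and one of 0.92 parted NK from MSCP1.

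For miR-29b, the non-malignant squamous lines read 7.88 in C5N, 9.91 in C50, 9.69 in NK, 8.26 in MSCP1 and 11.65 in P6. The malignant squamous lines read 11.54 in B9, 12.67 in E4 and 12.16 in PDVC57. The spindle lines read 10.92 in A5, 12.38 in D3, 11.25 in CARB, 11.24 in CARC and 11.77 in H11. P6 lay above B9 and above 3 of the 5 spindle lines, and the 4 other non-malignant lines lay below every malignant line. The group means were 9.48 ± 1.5 (SD, n = 5), 12.1 ± 0.56 (SD, n = 3) and 11.5 ± 0.57 (SD, n = 5). The largest gaps in the order were 1.43, between NK and MSCP1, and 1.01, between A5 and C50. From E4 down to A5 no step exceeded 0.39, but the A5 arrays differed by only 0.05 for this probe, and 1 repeated line cannot give the error of the others.

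For miR-29c, the non-malignant squamous lines read 6.60 in C5N, 8.06 in C50, 7.40 in NK, 7.00 in MSCP1 and 8.57 in P6. The malignant squamous lines read 8.46 in B9, 7.98 in E4 and 8.90 in PDVC57. The spindle lines read 8.31 in A5, 8.98 in D3, 8.99 in CARB, 9.79 in CARC and 9.55 in H11. Spindle lines took the 4 highest places, and the squamous groups overlapped each other. C5N was at background, 0.03 below the negative control median, and MSCP1 and NK were 0.37 and 0.74 above it. Differences against these 3 lines are limited by the floor, which can understate a change. The arrays of C5N and MSCP1 also stood apart, which can overstate it, so the direction of any bias is not known. The group means were 7.53 ± 0.80 (SD, n = 5), 8.45 ± 0.46 (SD, n = 3) and 9.12 ± 0.57 (SD, n = 5). No step in the order exceeded 0.58, while the A5 arrays differed by 0.01.

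**Figure D1:**
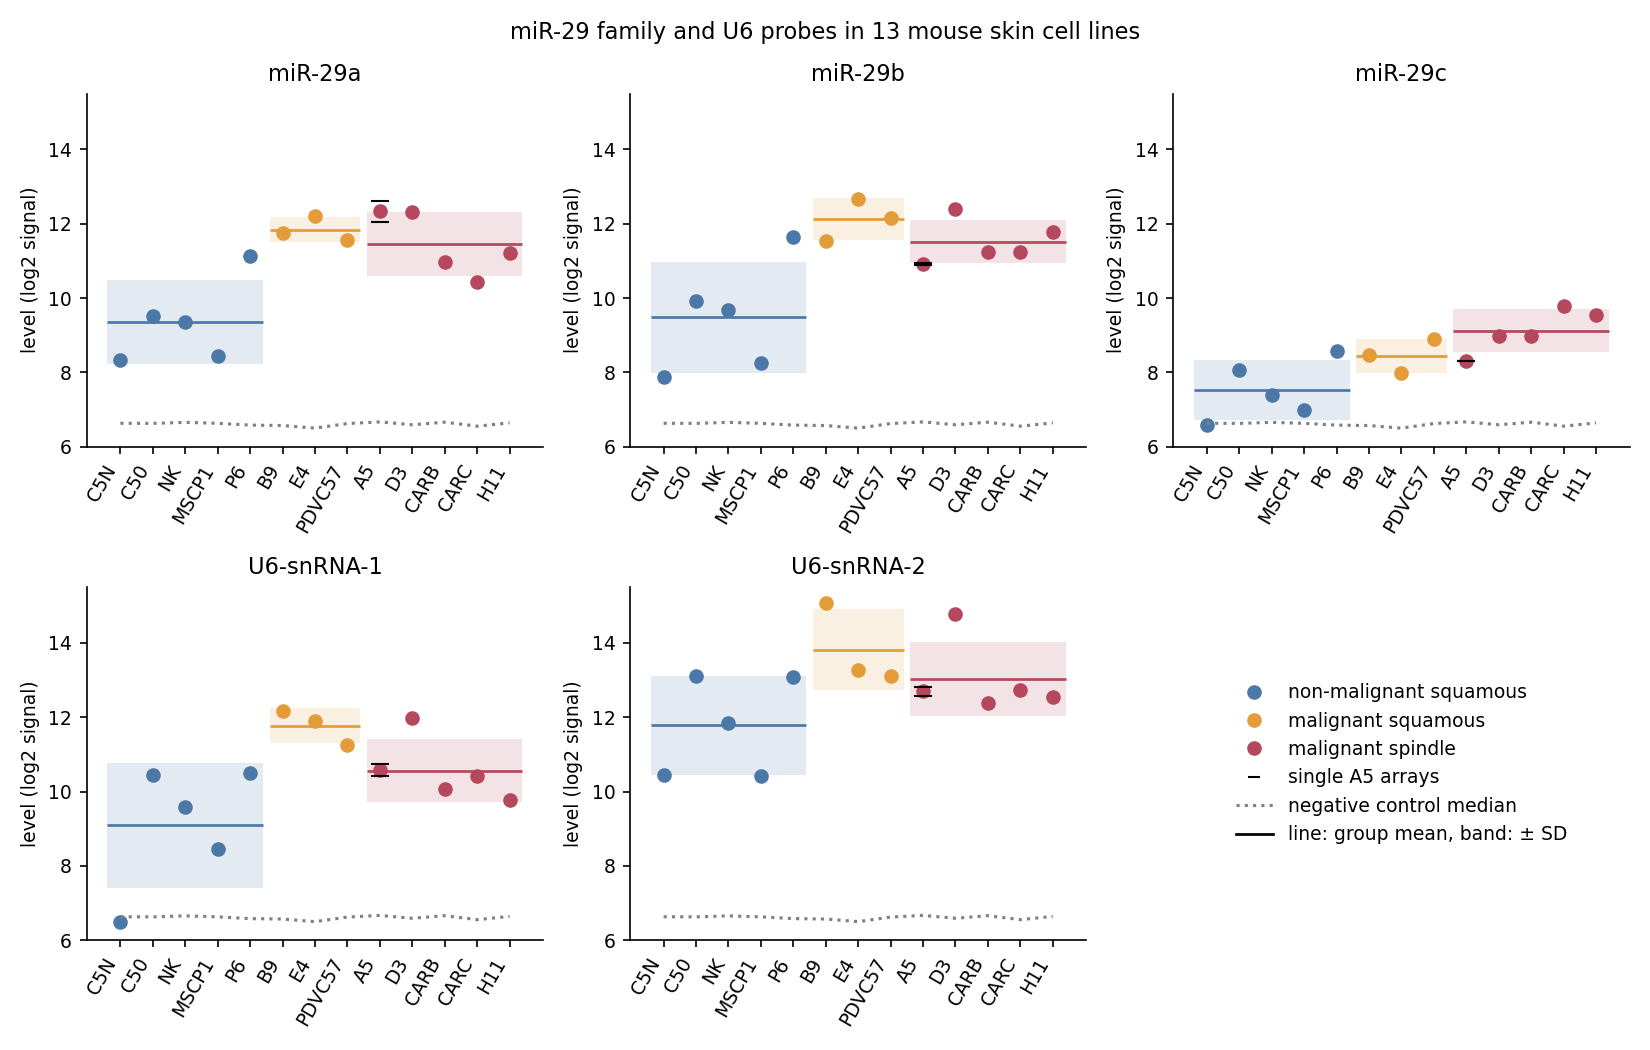
Levels (log2 signal, y axis) of the 3 miR-29 probes and both U6 probes in the 13 lines (x axis), coloured by phenotype, with group means, bands of ± 1 SD, single A5 arrays and the negative control median (dotted). C5N, C50, NK and MSCP1 are the 4 lowest lines for miR-29a and miR-29b, and P6, at 11.13 and 11.65, sits among the malignant lines.

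The U6 probes varied with a like pattern. U6-snRNA-1 read 6.48 in C5N, 10.44 in C50, 9.58 in NK, 8.44 in MSCP1 and 10.50 in P6. It read 12.18 in B9, 11.90 in E4 and 11.24 in PDVC57, and among spindle lines 10.58 in A5, 11.97 in D3, 10.07 in CARB, 10.41 in CARC and 9.78 in H11. C5N was 0.15 below the negative control median, so a U6-snRNA-1 ratio has no measured denominator there. U6-snRNA-2 read 10.45 in C5N, 13.10 in C50, 11.85 in NK, 10.42 in MSCP1 and 13.09 in P6. It read 15.06 in B9, 13.26 in E4 and 13.10 in PDVC57, and among spindle lines 12.70 in A5, 14.77 in D3, 12.39 in CARB, 12.73 in CARC and 12.55 in H11. Both were lowest in C5N and MSCP1 and highest in B9, with D3 next.

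By exact two-sided permutation tests over lines (6 tests), U6-snRNA-1 was 2.69 higher in malignant squamous than in non-malignant squamous lines (p = 0.0357, adjusted 0.161), where the groups did not overlap. U6-snRNA-2 was 2.02 higher there (exact p = 0.0536, adjusted 0.161, with 0.0179 the smallest p the 3 against 5 lines allow). For spindle against non-malignant squamous lines the differences were 1.47 (exact p = 0.127) and 1.25 (exact p = 0.159). Without C5N, MSCP1 and A5 these 4 differences were 1.60, 1.13, 0.38 and 0.43. Whether RNA input, labelling or U6 itself differed between the lines was not tested.

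The first comparison set the 5 spindle lines against the 5 non-malignant squamous lines, the ends of the phenotype series. In the limma fit over all 576 mouse probes, miR-29a was 2.09 ± 0.64 (SE) higher in the spindle lines (adjusted p = 0.396, 95% interval 0.72 to 3.46). miR-29b was 2.04 ± 0.70 (SE) higher (adjusted p = 0.396, interval 0.54 to 3.53). miR-29c was 1.59 ± 0.43 (SE) higher (adjusted p = 0.351, interval 0.67 to 2.52). None of the members was called at an adjusted p of 0.05, as was no mouse probe (0 of 576, percent called 0). At an unadjusted p under 0.05, 3 of 3 members were higher, against 5.56% of all mouse probes. The members' median difference was 2.04, against 0.03 over the 576 probes and 0.35 over the 188 that were over 1 unit above background in at least 3 lines, and by size of difference miR-29a, miR-29b and miR-29c ranked 2, 3 and 9 from the top. None of the 3 separated the groups without overlap, which 0.174% of probes did in this direction. Over the 28 settings tried, including each line left out in turn, the adjusted p-values ran from 0.168 to 0.872 for miR-29a, 0.197 to 0.872 for miR-29b and 0.0554 to 0.873 for miR-29c. The epithelial markers were dimmer and the mesenchymal markers brighter in the same lines (summed log2 levels 8.51 to 9.03 against 9.47 to 12.7, and 9.42 to 10.8 against 9.03 to 9.28), and their part in the miR-29 differences was not tested.

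The second comparison, malignant squamous against non-malignant squamous lines, asked about malignancy at a shared squamous shape. miR-29a was 2.48 ± 0.74 (SE) higher in the malignant lines (interval 0.90 to 4.06) and miR-29b 2.65 ± 0.81 (SE) higher (interval 0.92 to 4.37). miR-29c was 0.92 ± 0.50 (SE) higher, with an interval of -0.15 to 1.99 that included 0. The adjusted p was 0.844 for each, and 0 of 576 probes were called (percent called 0). By unadjusted p, miR-29a (0.00465) and miR-29b (0.00533) ranked first and second of the 576 mouse probes, and by size they ranked 2 and 1. At an unadjusted p under 0.05, 2 of 3 members were higher, against 2.6% of probes. Only miR-29a separated the groups without overlap, as did 2.6% of probes. The members' median difference was 2.48, against 0.03 over all probes and 0.40 over the 188 brighter ones.

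Between the malignant groups, spindle minus squamous, miR-29a differed by -0.38 ± 0.74 (SE), miR-29b by -0.61 ± 0.81 (SE) and miR-29c by 0.67 ± 0.50 (SE). All 3 adjusted p-values were 0.99, and the intervals, -1.96 to 1.20, -2.34 to 1.12 and -0.40 to 1.75, leave room for changes of over 1 unit in size. By size from the top they ranked 503, 543 and 13 of 576. No probe was called (percent called 0), 17 of 576 had an unadjusted p under 0.05 in either direction, and no member was among the 1.39% that were higher, nor among the 1.22% higher without overlap. With the spindle and squamous malignant lines weighted equally against the non-malignant lines, a contrast built from the same lines, the differences were 2.28 ± 0.58, 2.34 ± 0.64 and 1.26 ± 0.40 (SE). Their adjusted p was 0.541 each, percent called was again 0, and 3 of 3 members had an unadjusted p under 0.05 and were higher, against 3.82% of probes.

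**Figure D2:**
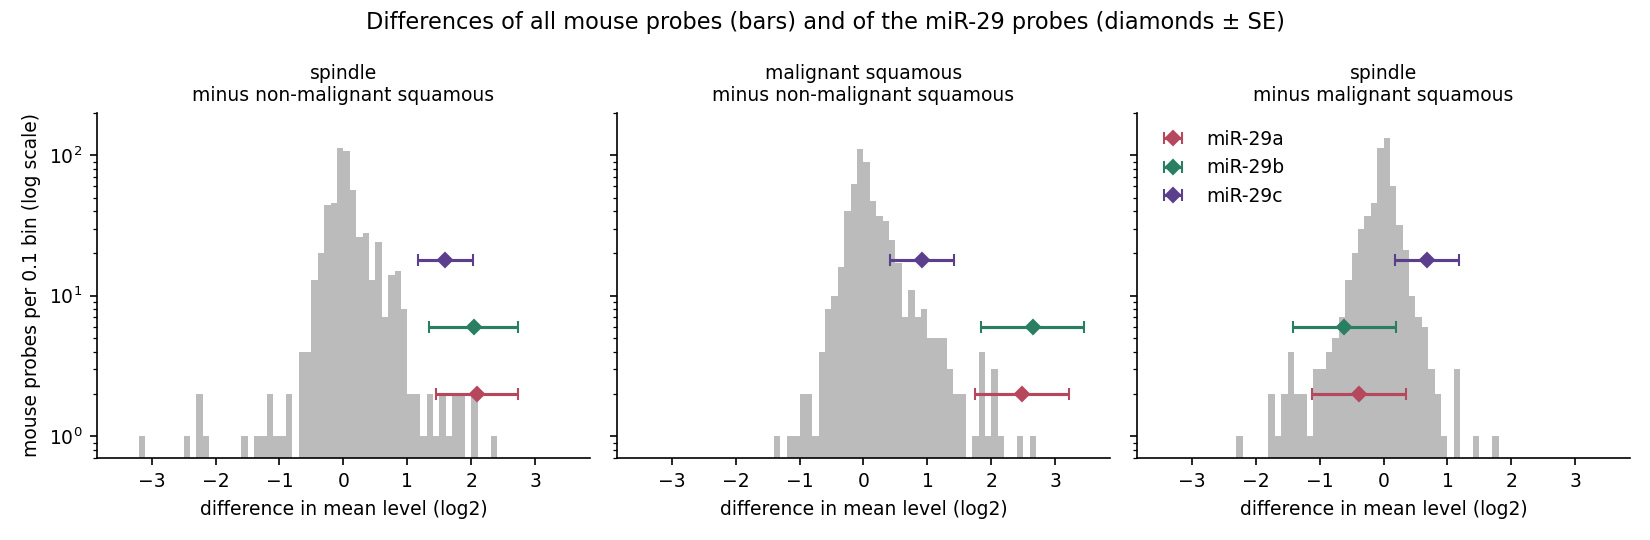
Bars count the 576 mouse probes by difference in mean log2 level (x axis) on a log y axis, 1 panel per comparison; diamonds with bars of ± 1 SE mark the members, and their height has no meaning. miR-29a and miR-29b lie at the upper end at 2.09 and 2.04 (left) and 2.48 and 2.65 (middle), and below the centre at -0.38 and -0.61 (right).

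Leaving out the 3 lines whose arrays stood apart made the first comparison smaller and more even across the family, at 1.23, 1.25 and 1.31 for miR-29a, miR-29b and miR-29c. In the 10 lines kept, miR-29c did not overlap between spindle and non-malignant squamous lines (2.43% of probes were higher without overlap), nor between spindle and malignant squamous lines (2.78%). Both separations rested on leaving out A5, the lowest spindle line for miR-29c at 8.31, below P6 at 8.57 and PDVC57 at 8.90. In the lines kept, miR-29c was 0.88 higher in spindle than in malignant squamous lines. For malignant squamous against non-malignant squamous lines the values without the 3 lines were 1.83, 1.71 and 0.44. No member was called without these lines, while 7 mouse probes (1.22%) were called in the first comparison, 1 (0.174%) between the malignant groups and 0 in the other.

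Set against U6-snRNA-2, the family's elevation was smaller. miR-29a minus U6-snRNA-2 was -2.11 in C5N, -3.58 in C50, -2.48 in NK, -1.97 in MSCP1 and -1.96 in P6. It was -3.32 in B9, -1.05 in E4 and -1.54 in PDVC57, and among spindle lines -0.36 in A5, -2.45 in D3, -1.43 in CARB, -2.31 in CARC and -1.32 in H11. The groups overlapped, and B9, D3 and CARC lay in the range of the immortalized keratinocytes, while A5 was highest. Spindle minus non-malignant squamous differences relative to U6-snRNA-2 were 0.85, 0.79 and 0.35 for miR-29a, miR-29b and miR-29c, against a median of -1.22 over all mouse probes. Malignant squamous minus non-malignant squamous differences were 0.45, 0.62 and -1.10, against a median of -1.995.

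Relative to U6-snRNA-1 the first comparison gave 0.62, 0.57 and 0.12, against a median of -1.44 over all mouse probes. The second gave -0.21, -0.04 and -1.77, against a median of -2.66. The mean of each of the 3 members was thus lower in the malignant squamous lines on this scale, where 0 of 576 mouse probes were nominally higher. The sign for miR-29a and miR-29b rested on C5N: without it the second comparison gave 0.19, 0.21 and -1.35 (3 against 4 lines). Without C5N the first comparison gave 1.02, 0.82 and 0.54 (5 against 4 lines). Their unadjusted p-values by exact permutation test were 0.0794, 0.119 and 0.381. miR-29c minus U6-snRNA-1 was 0.12 in C5N, where both probes were at background, -2.37 in C50, -2.18 in NK, -1.44 in MSCP1 and -1.93 in P6. It was -3.71 in B9, -3.92 in E4 and -2.34 in PDVC57, and among spindle lines -2.26 in A5, -2.99 in D3, -1.08 in CARB, -0.62 in CARC and -0.24 in H11. B9 and E4 were below all other lines, and PDVC57 lay beside C50. By exact two-sided permutation tests over lines, the 18 member differences relative to a U6 probe had unadjusted p-values of 0.0536 to 0.964. The lowest, 0.0536, belonged to miR-29c relative to U6-snRNA-1 in malignant against non-malignant squamous lines and in spindle against malignant squamous lines (1.89). The first of these rested in part on C5N, which has no measured ratio, and without C5N its exact p was 0.0571. These tests were added after the data were seen, since subtracting 1 U6 value gives every probe of an array the same error and limma then pooled the spread to 5760 degrees of freedom, against 14.2 on the deposited values. Its p-values on this scale are too small and its calls move together: it called miR-29c lower in malignant than in non-malignant squamous lines after U6-snRNA-1 (adjusted p = 0.0455, 0.0455 to 1 over all 28 settings), as it did 94.3% of the mouse probes.

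Subtracting a U6 probe moves every probe on an array by the same amount, so the distance from the members to the median of all probes is the same before and after. On the deposited values the members' median lay 2.01 above that of all probes in the first comparison and 2.45 above it in the second. Against the 188 brighter probes these distances were 1.69 and 2.08. Over the 13 lines, miR-29a correlated with U6-snRNA-1 at r = 0.843 (rho 0.852) and miR-29b at r = 0.874 (rho 0.736), descriptions over lines that share their array processing. Without C5N, MSCP1 and A5 (n = 10) these were 0.766 and 0.652. miR-29c correlated with U6-snRNA-1 at r = 0.596 (rho 0.308), which rested on C5N and MSCP1, the lines farthest from the median: without them r was -0.04.

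**Figure D3:**
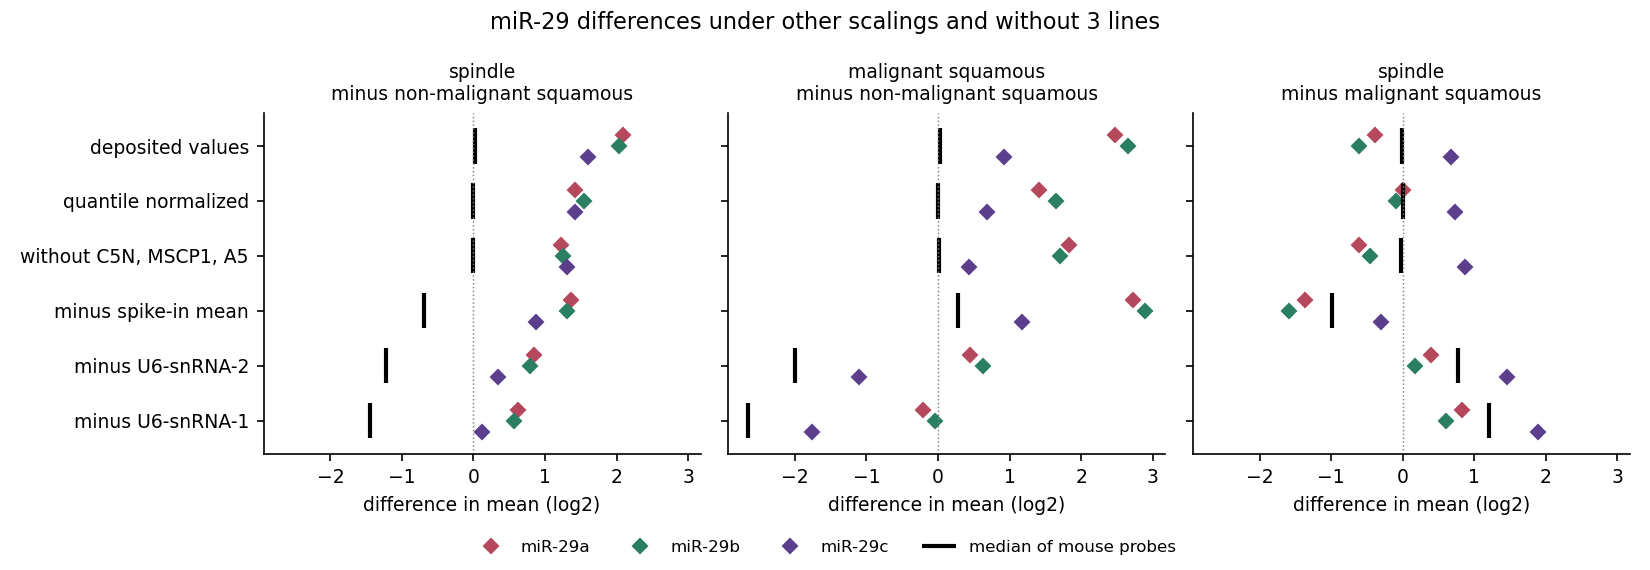
Differences in mean (log2, x axis) of the 3 members (diamonds) and the median of the 576 mouse probes (black bars) on the deposited values, under 4 other scalings and without 3 lines. In the middle panel miR-29a goes from 2.48 on deposited values to 0.45 and -0.21 relative to the U6 probes, as the median of all probes goes from 0.03 to -1.995 and -2.66.

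The members also differed from each other, in a way that subtracting 1 control value per array does not alter, whereas quantile normalization does: it brought the malignant squamous minus non-malignant squamous differences of miR-29a and miR-29c to 1.41 and 0.69. Differences between 2 probes on the same array are given only to compare lines, since 2 probes need not read with the same efficiency, and they are a description with no test, since the pattern was seen in these data. miR-29c minus miR-29a was -1.74 in C5N, -1.46 in C50, -1.97 in NK, -1.44 in MSCP1 and -2.56 in P6. It was lower in all malignant squamous lines, at -3.27 in B9, -4.23 in E4 and -2.65 in PDVC57, with PDVC57 and P6 the closest pair. Among spindle lines, A5 at -4.02 and D3 at -3.34, from the tumour of B9, lay with the malignant squamous lines. CARB at -1.98, CARC at -0.64 and H11 at -1.68 lay in or above the range of the non-malignant lines. The group means were -1.83 ± 0.46 (SD, n = 5) in non-malignant squamous, -3.39 ± 0.80 (SD, n = 3) in malignant squamous and -2.33 ± 1.35 (SD, n = 5) in spindle lines. Where miR-29c was near background, in C5N, MSCP1 and NK, the true difference may be more negative than measured.

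miR-29b minus miR-29a, the members that share the chromosome 6 locus, lay between -0.46 and 0.82 in 12 of the lines and at -1.41 in A5, where the single arrays gave -1.67 and -1.15. miR-29c minus miR-29b ran from -3.08 to -1.26 in non-malignant squamous, from -4.69 to -3.08 in malignant squamous and from -3.41 to -1.46 in spindle lines. Over the 13 lines miR-29a and miR-29b correlated at r = 0.920 (rho 0.764), and at 0.959 without C5N, MSCP1 and A5 (n = 10). miR-29a and miR-29c correlated at r = 0.644 (rho 0.401), falling to 0.307 without those lines. For miR-29b and miR-29c, which share the chromosome 1 locus, r was 0.775 (rho 0.555) and then 0.428.

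**Figure D4:**
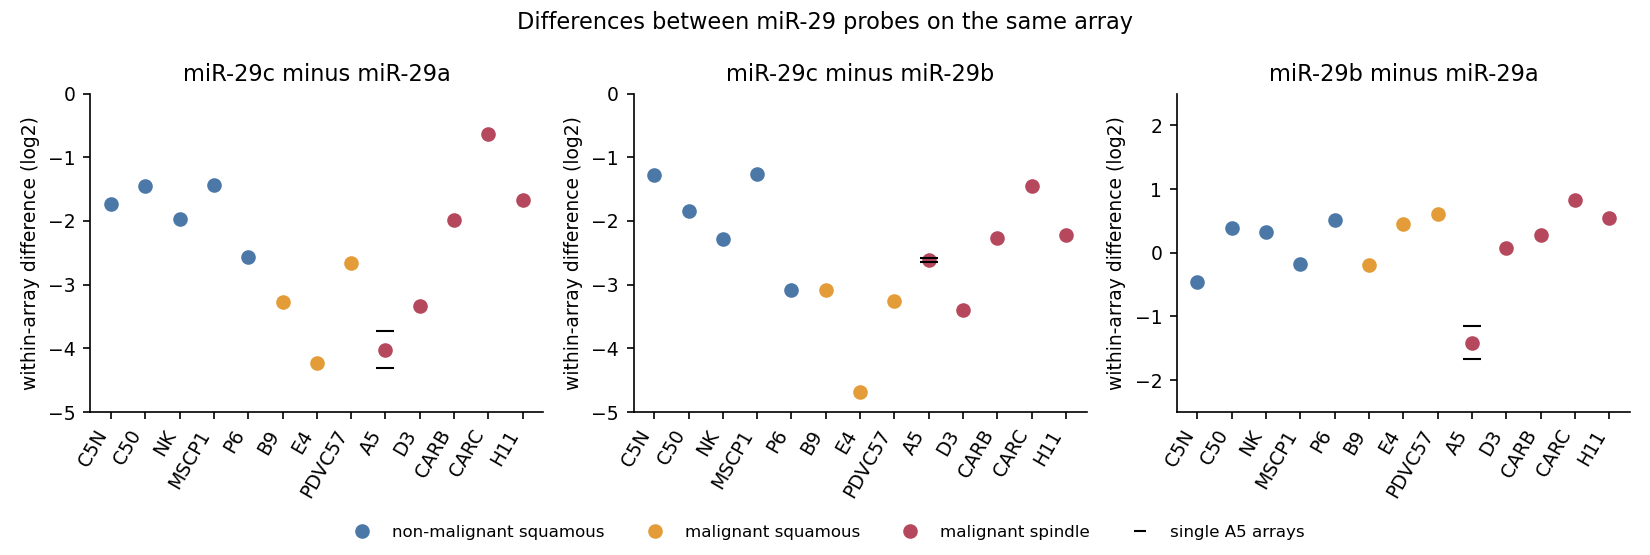
Within-array differences between members (log2, y axis) by line (x axis), coloured by phenotype, with the single A5 arrays as black marks. miR-29c minus miR-29a is lowest in E4 (-4.23) and A5 (-4.02) and highest in CARC (-0.64), and miR-29b minus miR-29a is below -0.46 only in A5.

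In lines of 1 tumour, spindle minus squamous differences on the deposited values ran in both directions. miR-29a was 0.60 higher in A5 and 0.58 higher in D3 than in B9, and 0.99 lower in H11 than in E4. miR-29b differed by -0.62 in A5 and 0.84 in D3 against B9, and by -0.90 in H11 against E4. miR-29c was 1.56 higher in H11 than in E4 and differed by 0.51 in D3 and -0.15 in A5 against B9. Relative to U6-snRNA-1 all 9 differences were positive, from 0.73 to 3.68. U6-snRNA-1 itself differed by -1.60 in A5 and -0.21 in D3 against B9, and by -2.12 in H11 against E4. Between the whole groups, spindle minus malignant squamous, 97.57% of mouse probes were nominally higher after U6-snRNA-1 and 95.66% after U6-snRNA-2. Relative to U6-snRNA-2 the 9 member differences ran from -0.27 to 2.96, with miR-29a and miR-29b in H11 against E4 below 0. With 1 array per line, 2 for A5, these differences have no test.

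The star forms are the strands of the hairpin that are usually degraded, and miR-29b* and miR-29c* were within 1 unit of background in every line. miR-29a* ran from 6.80 to 8.90 and was over 1 unit above background in A5, C5N, E4, D3 and PDVC57, miR-29b* from 6.71 to 7.41 and miR-29c* from 6.53 to 6.89. miR-29a* is shown with its seed in capitals, as it lies on the other arm of the miR-29a hairpin with a different seed.
miR-29a*: aCUGAUUUcuuuugguguucag
It differed by 0.40 ± 0.34 (SE) between spindle and non-malignant squamous lines (limma, adjusted p = 0.783). Over the 13 lines it correlated with miR-29a at r = 0.470 (rho 0.522), and at 0.761 without C5N, MSCP1 and A5.

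The mouse probes most like the mean of the 3 members over the 13 lines were miR-193 (r = 0.849), miR-221 (0.847), let-7i (0.817), miR-19b (0.804) and miR-207 (0.799), among 141 probes over 1 unit above background in at least 5 lines. The median r of those 141 probes was 0.47, and 16 exceeded 0.7. Without C5N, MSCP1 and A5 the 5 values were 0.758, 0.531, 0.466, 0.398 and 0.216.

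Among other miRNAs known to act on matrix and fibrosis genes, of 12 listed and measured, none was called in any of the 4 comparisons. In spindle against non-malignant squamous lines 7 were nominally higher and 5 lower, with a median difference of 0.32 against 0.03 over all probes. Of all 576 mouse probes 55.21% were nominally higher. At an unadjusted limma p under 0.05, 1 was higher and 3 were lower. Of all mouse probes 5.56% were higher at that threshold, and 49 passed it in either direction. The 3 lower were all miR-200 probes, and miR-200c is also among the epithelial markers used here. miR-200c and miR-200b, which hold back the epithelial to mesenchymal transition, had the largest differences, -2.23 ± 0.65 and -2.23 ± 0.71 (SE; adjusted p = 0.396 for each). In malignant squamous against non-malignant squamous lines 5 were nominally higher and 7 lower, with a median of -0.01. Of all mouse probes 55.03% were nominally higher in that comparison. There let-7d, miR-21 and miR-26a differed by 1.13, 2.04 and 0.98 (limma, adjusted p = 0.844 each), named after their values were seen. miR-21 read 7.01 in C5N and 10.2 in MSCP1, whose arrays stood apart. It read 11.5 to 13.5 in the other non-malignant squamous lines and 12.5 to 13.6 in the malignant squamous lines. The differences of let-7d, miR-21 and miR-26a without C5N and MSCP1 are not given here. miR-30c and miR-214 each differed by 0.70. miR-200a, miR-200b, miR-200c and miR-199a-5p differed by -0.62, -0.50, -0.96 and -0.33. miR-133a, miR-145 and miR-192, at background, differed by -0.06, -0.02 and -0.01. Between spindle and malignant squamous lines 4 were nominally higher and 8 lower, with a median of -0.20, while 48.61% of all mouse probes were nominally higher.

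The other miRNAs aimed at DNA methyltransferases, miR-148a, miR-148b and miR-152, were measured and none was called. miR-148a differed by -0.55 ± 0.42 (SE) and miR-152 by 0.33 ± 0.14 (SE) between spindle and non-malignant squamous lines (adjusted p = 0.767 and 0.525). The list's median difference was 0.06 there, -0.001 in malignant squamous against non-malignant squamous lines and -0.11 between the malignant groups.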

How the data were processed

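The authors deposited log2 signals of an Exiqon array for 14 arrays. Per the labels' protocols, total RNA was isolated with a Qiagen kit and labelled with the Exiqon kit. How the arrays were scanned, corrected and normalized is not given in the sources used, and centring and offset are unknown; the column medians, 6.71 to 6.86, lie near background. That the scale is log2 was read from the values.

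Groups came from the phenotype in the labels, and the 2 A5 arrays were averaged. The 576 mouse probes were fitted in R 4.3.3 by limma 3.58.1, with lmFit and a trended eBayes, adjusted by Benjamini-Hochberg over the 576 probes and called at 0.05, all 13 lines sharing 1 estimate of the spread. The fit was tested only on simulated data with independent noise, without lines of 1 tumour or arrays that stand apart. Its power for the members in these data was therefore not tested. U6 probes were compared with exact permutation tests. Sequences were matched by name to RefSeq tables (GRCm38.p6). The number of arrays, not a depth, limits the precision.

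The miR-29 family as a subject, its members and the lists were chosen with earlier results of these data known, and the probes were then found by name. Besides the members, their star forms and the U6 probes, the rule named the 5 miRNAs most correlated with the members' mean. It also named the 2 of each list with the largest spindle minus non-malignant squamous difference. Outside this rule are the other members of the matrix and fibrosis list, named for malignant squamous against non-malignant squamous lines, let-7a and the cell type markers. Alternatives covered U6, spike-in and quantile scaling, lines left out, single A5 arrays, other probe sets, no trend, the tumour as a random block and the Mus spretus cross as a covariate.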

Additional observations from a re-analysis of the deposited data

Results flagged for a closer look

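U6-snRNA-2 in D3 (14.77) stood apart from the other spindle lines, which read 12.39 to 12.73; its gap was 0.858 of the group's range, above Dixon's critical value of 0.71. It was 1 of 28 groups of values tested this way, and chance flags about 1 in 20.

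On the deposited values the spindle minus squamous difference of miR-29a ran in opposite directions in the tumours that gave lines of both shapes: -0.99 for H11 against E4, and 0.58 and 0.60 for D3 and A5 against B9. Relative to U6-snRNA-2 it was -0.27 for H11 against E4 and 0.87 to 2.96 for the other pairs. For miR-29b relative to U6-snRNA-2 it was -0.18 against 1.13 to 1.74. Relative to U6-snRNA-1 all were positive, 0.79 to 2.20 for miR-29a and 0.98 to 1.22 for miR-29b, while U6-snRNA-1 itself was lower in the spindle line of each pair. These differences between tumours were not tested.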

How the results depend on the processing

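No paired test was made. A5 and D3 share a tumour with B9, and H11 shares a metastasis with E4, while the other lines have no stated partner. Lines of 1 tumour were tied by a fit with the tumour as a random block, which called 0 probes in each comparison. Under the alternatives 317 member differences kept their direction and side of the threshold and 19 reversed. Reversed were, for malignant squamous minus non-malignant squamous, miR-29c after U6-snRNA-2 (-1.10), all 3 members after U6-snRNA-1 (-0.21, -0.038 and -1.77, the last of which was the 1 member call in any alternative), and miR-29c without C5N, MSCP1 and A5 after U6-snRNA-2 (-0.69) or U6-snRNA-1 (-1.17). For spindle minus malignant squamous they were miR-29a and miR-29b after U6-snRNA-2 (0.40, 0.17) and U6-snRNA-1 (0.83, 0.61), the same without the 3 lines (0.093, 0.24 and 0.62, 0.76), miR-29a after quantile normalization (0.007) and miR-29c after spike-in subtraction (-0.30). For malignant minus non-malignant they were miR-29c after U6-snRNA-2 (-0.38), after U6-snRNA-1 (-0.82) and after U6-snRNA-1 without the 3 lines (-0.12). After U6-snRNA-1, 0 of 576 mouse probes were nominally higher in malignant squamous than in non-malignant squamous lines. The correlation of miR-29c with U6-snRNA-1 became -0.056 without the 3 lines and -0.043 without the farthest 2. Fits that leave out the 3 lines and subtract U6, and exact tests relative to U6 without C5N, were chosen after seeing the data.

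Probes called in spindle minus non-malignant squamous numbered 0 on the deposited values, 7 after either U6 probe, 7 after the spike-ins, 2 after quantile normalization, 7 without the 3 lines (5 with either U6 probe too), 6 without dim probes, and 0 to 1 with each line left out (1 without MSCP1). In malignant squamous minus non-malignant squamous they numbered 8 after U6-snRNA-2, 543 after U6-snRNA-1, and 4 and 480 without the 3 lines. In spindle minus malignant squamous they numbered 1 without the 3 lines, 7 with U6-snRNA-1 too, and 0 to 1 with each line left out (1 without A5). In malignant minus non-malignant they numbered 20 and 533 after U6-snRNA-2 and U6-snRNA-1, 1 after quantile normalization, 5 without the 3 lines, and 5 and 11 with U6 too. The 543 calls, all lower, stand beside a difference of 2.69 in U6-snRNA-1 itself; the causes of these changes were not tested. With each line left out the lowest adjusted p of a member was 0.08, without P6, for miR-29a and miR-29b in malignant minus non-malignant.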

Other observations

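The array also carries probes named for star forms of other species. The probe for rno-miR-29b-1* read 9.01 in C5N and 6.61 to 6.99 in the 12 other lines. The probe for hsa-miR-29b-2* stayed at 6.29 to 6.72 in all 13 lines, near the negative controls.

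Among markers of other cell types, miR-142-3p, a miRNA of blood cells, was well above background in E4 (10.0), D3 (9.89) and H11 (11.1) only. The other blood markers, miR-223 and miR-451, were within 1 unit of background in every line, as were the endothelial and neural markers. The muscle marker miR-1 was over 1 unit above background in 8 lines, up to 1.77 in D3. The other muscle markers, miR-133a and miR-206, were within 1 unit of background in every line. The liver marker miR-122 was over 1 unit above background in C5N alone, by 1.35.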
